A study of Mus musculus with 15 samples.

Results

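The nuclear genes of the respiratory chain and ATP synthase were read in mouse skin. They were taken as the protein-coding rows outside the mitochondrial genome whose symbols begin with Ndufa, Ndufb, Ndufc, Ndufs, Ndufv, Uqcr, Cox4 to Cox8 or Atp5, or equal Sdha, Sdhb, Sdhc or Sdhd. The rule used names and positions only, and gave 94 of the 54532 rows of the table, of which 22046 are protein-coding. Subunits made up 84 of them, with 36 in complex I, 4 in complex II, 8 in complex III, 19 in complex IV and 17 in complex V. The other rows were 8 assembly factors of complex I (Ndufaf1 to Ndufaf8), the supercomplex factor Cox7a2l and Atp5s, also called coupling factor B. Ndufa4 and Ndufa4l2, named after complex I, were placed in complex IV, where the Ndufa4 protein is found.

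The libraries came from skin labelled Trpv3-knockout given MC903 (KO-labelled MC903), wild-type skin given MC903 (WT MC903), untreated skin labelled Trpv3-knockout (KO-labelled untreated) and untreated wild-type skin (WT untreated), 3 libraries each. MC903 (calcipotriol), a vitamin D analogue used on mouse skin as a model of atopic dermatitis, was given for 7 days, and no vehicle group is named. TRPV3 is a warmth-sensing cation channel of epidermal cells. The series' design speaks of conditional knockouts, while the labels used here name no promoter, no targeted cell type, no strain and no age. Nothing in them says that replicates were separate animals, so p-values reflect only the variation among the 12 libraries, part or all of which could be technical.

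The respiratory chain passes electrons from NADH, through complex I, and from succinate, through complex II, to ubiquinone, then through complex III and cytochrome c to complex IV, which reduces oxygen. Complexes I, III and IV pump protons across the inner mitochondrial membrane, and complex V, the ATP synthase, lets them back to make ATP. Most subunits are encoded in the nucleus, made in the cytosol and imported, while a few core subunits of every complex except II are encoded by mitochondrial DNA. Several complex IV subunits exist as tissue isoforms, among them forms used mainly in striated muscle. In skin the cells with the most mitochondria per cell include the fibres of the thin muscle sheet under the fat.

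Expression is given as FPKM, the fragments per kilobase of gene length and per unit of scaled library depth. The 12 libraries held 16869716 to 18485698 reads assigned to genes, so that a single read over 1 kb counted for 0.0496 to 0.0615 FPKM. Log2 fold changes were taken between means of log2(FPKM + 0.5) and are given ± standard error (SE), and adjusted p-values come from limma fitted over 17646 genes with a threshold of 0.05. Trpv3 had an FPKM of 6.82, 6.78 and 4.73 in KO-labelled MC903 skin, against 16.1, 17.0 and 19.0 in WT MC903 skin (log2 fold change -1.45 ± 0.22, limma adjusted p = 0.00032). In untreated skin it had 3.17, 3.64 and 2.62 in the KO-labelled libraries, against 2.06, 2.71 and 1.13 in WT libraries (0.61 ± 0.22, limma adjusted p = 0.1). Trpv3 was thus not lower in the untreated libraries labelled knockout, so the label is kept as a label throughout.

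After the filter on low values 91 of the 94 rows were tested. Cox7b2 and Cox8c, isoforms known from testis, and a second row named Atp5o (ENSMUSG00000116933) had 0 reads in all 12 libraries. A count of 0 allows up to 3 reads, or at most 0.34 FPKM for Cox7b2, 0.403 for Cox8c and 0.348 for that Atp5o row. The second Atp5o row (chromosome 16, 91684398 to 91926982, mm10) overlaps the Atp5o gene itself (ENSMUSG00000022956, 91925214 to 91931687), and reads shared by overlapping genes may have been left uncounted. WT untreated replicate 3 stood apart: it had the highest level of its group for 86 of the 91 members, with a median ratio of 1.37 to the median of the other replicates. The median coefficient of variation over members was 7.01% in KO-labelled MC903, 12.6% in WT MC903, 5.37% in KO-labelled untreated and 20.9% in WT untreated skin.

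Letters known from binding sites of NRF1 and GABP, transcription factors of many nuclear respiratory genes, were looked up in the 250 bases before the RefSeq gene start (GRCm38.p6), which was given for 74 member genes with 79 promoters. On either strand GCGCANGCG (NRF1) was present in 16 member promoters, or 20.3%, against 5.16% of all 32851 promoters. CCGGAAG (GABP) was present in 14, or 17.7%, against 6.91% of all, and both were present in 4 member promoters, or 5.06%, against 0.755% of all. A match is a run of letters and not a binding site. The 150 bases directly before the gene's span in the table are shown 5′ to 3′ on the gene's strand for 5 members. They are 3 widely expressed subunits picked because their MC903 response differed between the genotypes and their promoters held such letters, and a pair of striated muscle isoforms. Of the 18 members with a differing response and a promoter entry 8 held either run of letters, as did 25 of all 74 members with an entry. Capitals mark the searched letters. The 5 are Ndufa11 (chr17:56717612-56717761, plus strand), Uqcr11 (chr10:80406831-80406980, minus strand), Cox6a1 (chr5:115348982-115349131, minus strand), Cox7a1 (chr7:30183994-30184143, plus strand) and Cox8b (chr7:140900447-140900596, minus strand).
Ndufa11: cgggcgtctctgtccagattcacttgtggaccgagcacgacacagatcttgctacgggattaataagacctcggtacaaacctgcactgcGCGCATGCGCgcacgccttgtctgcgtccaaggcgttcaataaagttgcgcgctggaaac
Uqcr11: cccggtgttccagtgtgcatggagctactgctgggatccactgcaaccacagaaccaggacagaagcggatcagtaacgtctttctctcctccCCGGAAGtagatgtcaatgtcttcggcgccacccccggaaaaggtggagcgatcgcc
Cox6a1: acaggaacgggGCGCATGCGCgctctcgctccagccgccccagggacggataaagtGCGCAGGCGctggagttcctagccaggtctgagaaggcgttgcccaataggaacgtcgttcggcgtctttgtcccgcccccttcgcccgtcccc
Cox7a1: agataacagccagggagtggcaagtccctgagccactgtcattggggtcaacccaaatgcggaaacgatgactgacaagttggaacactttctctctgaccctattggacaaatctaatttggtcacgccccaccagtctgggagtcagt
Cox8b: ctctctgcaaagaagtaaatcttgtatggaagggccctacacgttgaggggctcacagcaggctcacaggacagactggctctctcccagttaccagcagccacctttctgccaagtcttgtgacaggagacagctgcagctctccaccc
The capitals are NRF1 letters in Ndufa11 and Cox6a1, where matches on both strands overlap in the longer run, and GABP letters in Uqcr11. The Cox6a1 promoter held a further GABP match nearer to the RefSeq start. Cox7a1 and Cox8b had neither run of letters in the 250 bases searched.

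KO-labelled MC903 skin had less mRNA of most respiratory subunits than WT MC903 skin, and lower members were found in every complex. Of the 91 tested members 68 were lower and 1, the complex IV isoform Cox4i2, was higher. Over all genes tested in this comparison 52.1% passed, 25.9% higher and 26.1% lower, beside 1.1% and 74.7% of the members. The members' median log2 fold change was -0.49, against -0.03 over all genes tested, and 88 members were below 0. The libraries of the groups did not overlap for 76 of the 91, or 83.5%, beside 62.7% of all genes tested.

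Read by complex, 27 of 36 members were lower in complex I, 2 of 4 in complex II, 7 of 8 in complex III, 13 of 17 in complex IV and 15 of 16 in complex V. Their median log2 fold changes were -0.53, -0.23, -0.67, -0.71 and -0.46 in that order. Of the assembly factors 2 of 8, Ndufaf2 and Ndufaf8, were lower. When FPKM was rescaled to the same sum in every library, here called TPM scaling, the median of all genes moved to 0.20 in this comparison, and 34 members were lower and 3 higher, with a median of -0.20. Of all genes tested under that scaling 12% were lower and 32.4% higher. Set against the median of all genes, the members' median lay between -0.55 and -0.40 under all the alternatives tried. The medians of complexes I, III, IV and V stayed below 0 under TPM scaling, while those of complex II (0.06) and of the assembly factors (0.05) turned positive. In bulk tissue, fewer cells of a type and less RNA per cell cannot be told apart.

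**Figure D1:**
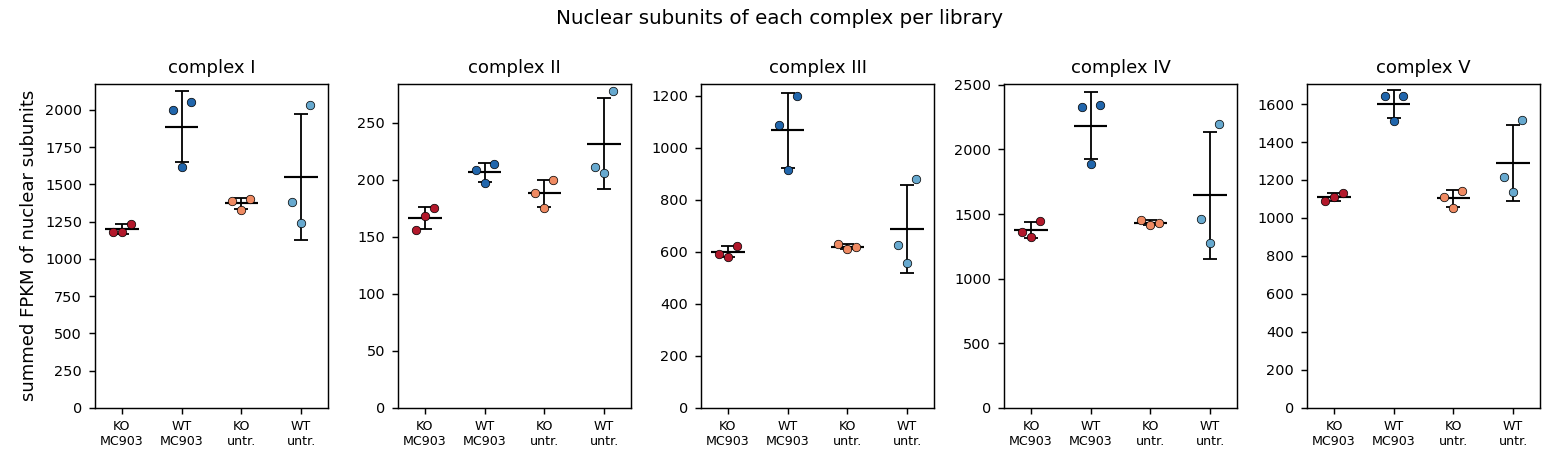
Summed FPKM of the subunit genes of each complex, per library, for the 4 groups; points are libraries, the line is the mean and the bar the SD of 3 libraries. KO-labelled MC903 libraries lie below all WT MC903 libraries in every complex, and WT untreated skin has the widest spread.

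The plot of summed levels shows how the groups lay. All subunits together came to 4360, 4384 and 4612 FPKM in KO-labelled MC903 skin (ordered by size), against 6122, 7270 and 7451 in WT MC903 skin. In untreated skin the sums were 4588, 4775 and 4794 FPKM in KO-labelled libraries, against 4410, 4897 and 6907 in WT libraries. The highest untreated WT sum was that of replicate 3. After MC903 the genotypes did not overlap for any complex: complex I came to 1177 to 1237 FPKM in KO-labelled skin, against 1614 to 2051 in WT skin. Complex II came to 156.4 to 175.7 in KO-labelled skin, against 197.4 to 213.9 in WT skin. Complex III came to 582 to 623.1 in KO-labelled skin, against 913.8 to 1201 in WT skin. The gap was narrowest for complex II, of whose 4 genes 2 were lower and 2 did not pass. Complex IV came to 1323 to 1443 FPKM in KO-labelled skin, against 1884 to 2341 in WT skin, and complex V to 1089 to 1132 in KO-labelled skin, against 1513 to 1645 in WT skin.

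Complex I, the NADH dehydrogenase, is built of a catalytic core and a shell of supernumerary subunits. In KO-labelled MC903 skin 6 of 7 nuclear core genes were lower than in WT MC903 skin, as were 21 of 29 supernumerary genes. Within the core the change was smallest for Ndufv2, an iron-sulfur subunit of the NADH-oxidising module, with 49.5, 48.7 and 49.5 FPKM in KO-labelled skin, against 55.1, 58.1 and 61.2 in WT skin (log2 fold change -0.24 ± 0.07, limma adjusted p = 0.012). It was largest for Ndufs3, a subunit of the ubiquinone-reducing module, with 23.4, 22.4 and 21.9 FPKM in KO-labelled skin, against 41.3, 36.0 and 37.1 in WT skin (-0.74 ± 0.11, limma adjusted p = 0.00023). The libraries of the genotypes did not overlap for either gene. Ndufs8, the core gene that did not pass, had 67, 62.6 and 58.2 FPKM in KO-labelled skin, against 79.1, 69.8 and 77.2 in WT skin.

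Supernumerary subunits held the widest range. Ndufs6 (chromosome 13, 73319838 to 73328542, mm10), a zinc-binding accessory subunit of the electron-input arm, had 13, 17.1 and 17.1 FPKM in KO-labelled MC903 skin, against 72.6, 38.4 and 60.3 in WT MC903 skin. Every KO-labelled library lay below every WT library (log2 fold change -1.79 ± 0.30, limma adjusted p = 0.00052). Ndufa2, an accessory subunit of the same arm, had 71.2, 70.1 and 75.6 FPKM in KO-labelled skin, against 188, 134 and 248 in WT skin (-1.34 ± 0.35, limma adjusted p = 0.0084). At the other end Ndufa10, an accessory subunit of the membrane arm, had 24.3, 24.0 and 23.6 FPKM in KO-labelled skin, against 27.9, 27.6 and 26.7 in WT skin (-0.19 ± 0.07, limma adjusted p = 0.048). Its groups did not overlap, but its change was small and passed under only 9 of the 27 alternatives other than the 2-fold threshold. Under TPM scaling Ndufa10 (0.11) and Ndufv2 (0.06) were above 0, as were the lower-called genes Ndufa9 (0.05) and Ndufs1 (0.01). Ndufb2 had the highest value of complex I, at 0.09, and did not pass.

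**Figure D2:**
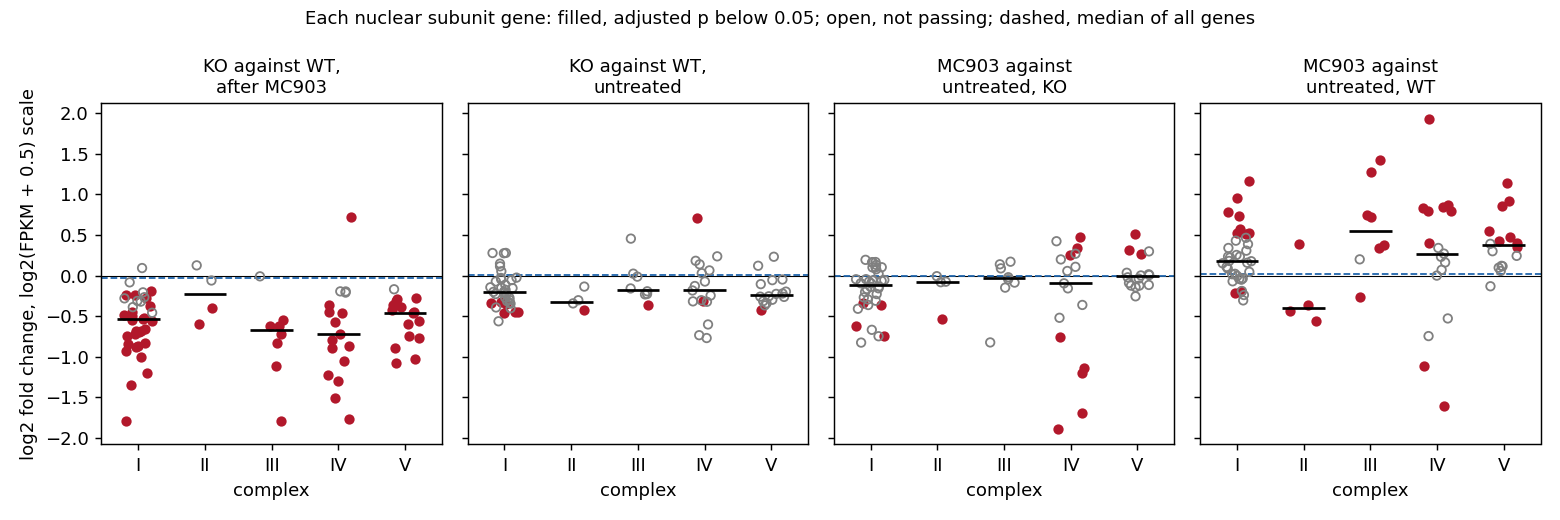
Log2 fold change of each nuclear subunit gene (vertical axis, log2(FPKM + 0.5) scale) by complex in 4 comparisons; filled points passed an adjusted p of 0.05, open points did not, bars are medians of the complex and the dashed line is the median of all genes. In KO-labelled against WT skin after MC903 nearly all points lie below 0, with Ndufs6, Uqcr11 and Cox6a2 lowest, and Cox4i2 is the filled point above 0.

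Complex II, succinate dehydrogenase, joins the chain to the tricarboxylic acid cycle. Its membrane anchor Sdhd had 53.1, 61.2 and 63.3 FPKM in KO-labelled MC903 skin, against 87.2, 81.7 and 101 in WT MC903 skin (log2 fold change -0.60 ± 0.14, limma adjusted p = 0.0041). The flavoprotein Sdha had 33.0, 34.6 and 40.2 FPKM in KO-labelled skin, against 48.6, 47.5 and 46.5 in WT skin (-0.40 ± 0.12, limma adjusted p = 0.018). Neither of these genes had overlapping groups. The iron-sulfur subunit Sdhb had 44.8, 43.8 and 41.2 FPKM in KO-labelled skin, against 42.3, 38.4 and 38.2 in WT skin (0.13, limma adjusted p = 0.33), and the anchor Sdhc had 25.5, 28.5 and 30.9 in KO-labelled skin, against 30.6, 29.7 and 28.2 in WT skin (-0.06, limma adjusted p = 0.69). For both the groups overlapped.

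Complex III, the cytochrome bc1 complex, held a single member that did not pass. Uqcrc2, a core protein, had 49.2, 53.6 and 52.2 FPKM in KO-labelled MC903 skin, against 51.2, 52.9 and 51.8 in WT MC903 skin (log2 fold change -0.01, limma adjusted p = 0.93). Its partner core protein Uqcrc1 had 47.7, 47.3 and 43.8 FPKM in KO-labelled skin, against 74.9, 70.2 and 58.5 in WT skin (-0.54 ± 0.13, limma adjusted p = 0.0043). The groups overlapped for Uqcrc2 and not for Uqcrc1. Uqcrfs1, the Rieske iron-sulfur protein that carries electrons to cytochrome c1, had 80.8, 86.0 and 84.1 FPKM in KO-labelled skin, against 118, 131 and 137 in WT skin (-0.62 ± 0.12, limma adjusted p = 0.0012). The small subunits moved most. Uqcr11 (chromosome 10, 80402997 to 80406830, mm10), which is added late in assembly, had 35.3, 37.7 and 48.2 FPKM in KO-labelled skin, against 190, 96.6 and 148 in WT skin (-1.79 ± 0.42, limma adjusted p = 0.0042). Uqcrq had 60.4, 55 and 62.0 FPKM in KO-labelled skin, against 143, 96.6 and 153 in WT skin (-1.11 ± 0.28, limma adjusted p = 0.0059). WT MC903 replicate 2 was the lowest of its group for both small subunits and still lay above all KO-labelled libraries.

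Complex IV, cytochrome c oxidase, held the lowest values besides those of Ndufs6 and Uqcr11, and the single higher member. Without the tissue isoforms 8 of 11 genes were lower, with a median of -0.46. Cox5b, a zinc-binding subunit, had 20.2, 26.2 and 28.2 FPKM in KO-labelled MC903 skin, against 77.4, 50.5 and 59.3 in WT MC903 skin (log2 fold change -1.30 ± 0.31, limma adjusted p = 0.0048). Cox6b1, which faces the intermembrane space, had 142, 159 and 147 FPKM in KO-labelled skin, against 274, 242 and 305 in WT skin (-0.87 ± 0.14, limma adjusted p = 0.00052). Cox4i1, the common form of the regulatory subunit 4, had 156, 140 and 158 FPKM in KO-labelled skin, against 241, 202 and 235 in WT skin (-0.57 ± 0.17, limma adjusted p = 0.016). None of these 3 had overlapping groups. The smallest change that passed was that of Ndufa4, with 195, 189 and 192 FPKM in KO-labelled skin, against 248, 211 and 290 in WT skin (-0.37 ± 0.12, limma adjusted p = 0.02). The supercomplex factor Cox7a2l, which is named like an isoform of Cox7a but joins complexes III and IV, had 114, 121 and 139 FPKM in KO-labelled skin, against 182, 152 and 179 in WT skin (-0.46 ± 0.12, limma adjusted p = 0.0066).

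Complex V, the ATP synthase, had lower levels of its alpha, beta and gamma chains, 3 of 3. Atp5a1 (alpha chain) had 205, 219 and 196 FPKM in KO-labelled MC903 skin, against 307, 283 and 265 in WT MC903 skin (log2 fold change -0.46 ± 0.12, limma adjusted p = 0.0068). Atp5b (beta chain) had 182, 193 and 183 FPKM in KO-labelled skin, against 266, 237 and 215 in WT skin (-0.36 ± 0.11, limma adjusted p = 0.014). The change was smallest for Atp5c1 (gamma chain), with 96.8, 104 and 102 FPKM in KO-labelled skin, against 117, 123 and 125 in WT skin (-0.27 ± 0.07, limma adjusted p = 0.0081). Groups did not overlap for any of the 3. Larger changes were seen in Atp5d, the delta chain of the central stalk, with 75.6, 76.4 and 70.8 FPKM in KO-labelled skin, against 157, 145 and 153 in WT skin (-1.03 ± 0.17, limma adjusted p = 0.00055). Atp5k, the membrane subunit e, had 36.2, 30.5 and 41.2 FPKM in KO-labelled skin, against 72.7, 67.5 and 89.7 in WT skin (-1.08 ± 0.21, limma adjusted p = 0.0012). For both, every KO-labelled library lay below every WT library. Atp5f1 (subunit b) had 51.9, 56.3 and 57.2 FPKM in KO-labelled skin, against 62.3, 66.0 and 73.7 in WT skin (-0.28 ± 0.09, limma adjusted p = 0.025). Under TPM scaling Atp5c1 (0.03) and Atp5f1 (0.01) were above 0. Atp5mpl, a small membrane subunit, was the member of complex V that did not pass.

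Some complex IV subunits come as a tissue isoform beside a common form. The 6 counted here were Cox4i2, Cox6a2, Cox6b2, Cox7a1, Cox8b and Ndufa4l2. Of these Cox6b2 was near the limit of detection, and Ndufa4l2, a relative of Ndufa4, was counted with the tissue forms. After MC903, 5 of 6 were lower in KO-labelled than in WT skin, with a median of -1.06 over the 6. Cox6a2 (chromosome 7, 128205435 to 128206387, mm10), the striated muscle form of subunit 6a, had 19.5, 23.5 and 27.7 FPKM in KO-labelled MC903 skin, against 78.7, 75.7 and 87.8 in WT MC903 skin (log2 fold change -1.77 ± 0.33, limma adjusted p = 0.0011). Its common partner Cox6a1 had 198, 170 and 187 FPKM in KO-labelled skin, against 359, 260 and 297 in WT skin (-0.71 ± 0.17, limma adjusted p = 0.0053). The groups of both genes were apart. As a share of the FPKM of the pair, Cox6a2 made up 8.96%, 12.2% and 12.9% in KO-labelled MC903 skin, against 18%, 22.5% and 22.8% in WT MC903 skin. In untreated skin that share was 32.1%, 26.8% and 25.3% in KO-labelled libraries, against 38.9%, 32.7% and 49.3% in WT libraries. The 4 groups did not overlap in this share, which was lowest in KO-labelled MC903 skin and highest in WT untreated skin.

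Cox7a1, the form of subunit 7a in muscle and brown fat, had 5.67, 2.38 and 7.68 FPKM in KO-labelled MC903 skin, against 13.1, 14.3 and 16.3 in WT MC903 skin (log2 fold change -1.51 ± 0.39, limma adjusted p = 0.0075). Its partner Cox7a2 had 124, 126 and 134 FPKM in KO-labelled skin, against 143, 130 and 170 in WT skin (-0.20 ± 0.12, limma adjusted p = 0.2), with overlapping groups. Cox7a1 was 4.37%, 1.85% and 5.41% of the pair in KO-labelled skin, against 8.36%, 9.91% and 8.71% in WT skin. The muscle form was thus a smaller share in every KO-labelled library. Cox8b, the muscle form of subunit 8, had 30.6, 19.2 and 37.8 FPKM in KO-labelled skin, against 47.0, 66.8 and 93.0 in WT skin (-1.22 ± 0.33, limma adjusted p = 0.0094). Cox8a had 131, 132 and 156 FPKM in KO-labelled skin, against 377, 220 and 295 in WT skin (-1.06 ± 0.29, limma adjusted p = 0.01). Both fell, and the share of Cox8b in the pair overlapped between the genotypes, at 18.9%, 12.7% and 19.5% in KO-labelled skin, against 11.1%, 23.3% and 24.0% in WT skin.

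**Figure D3:**
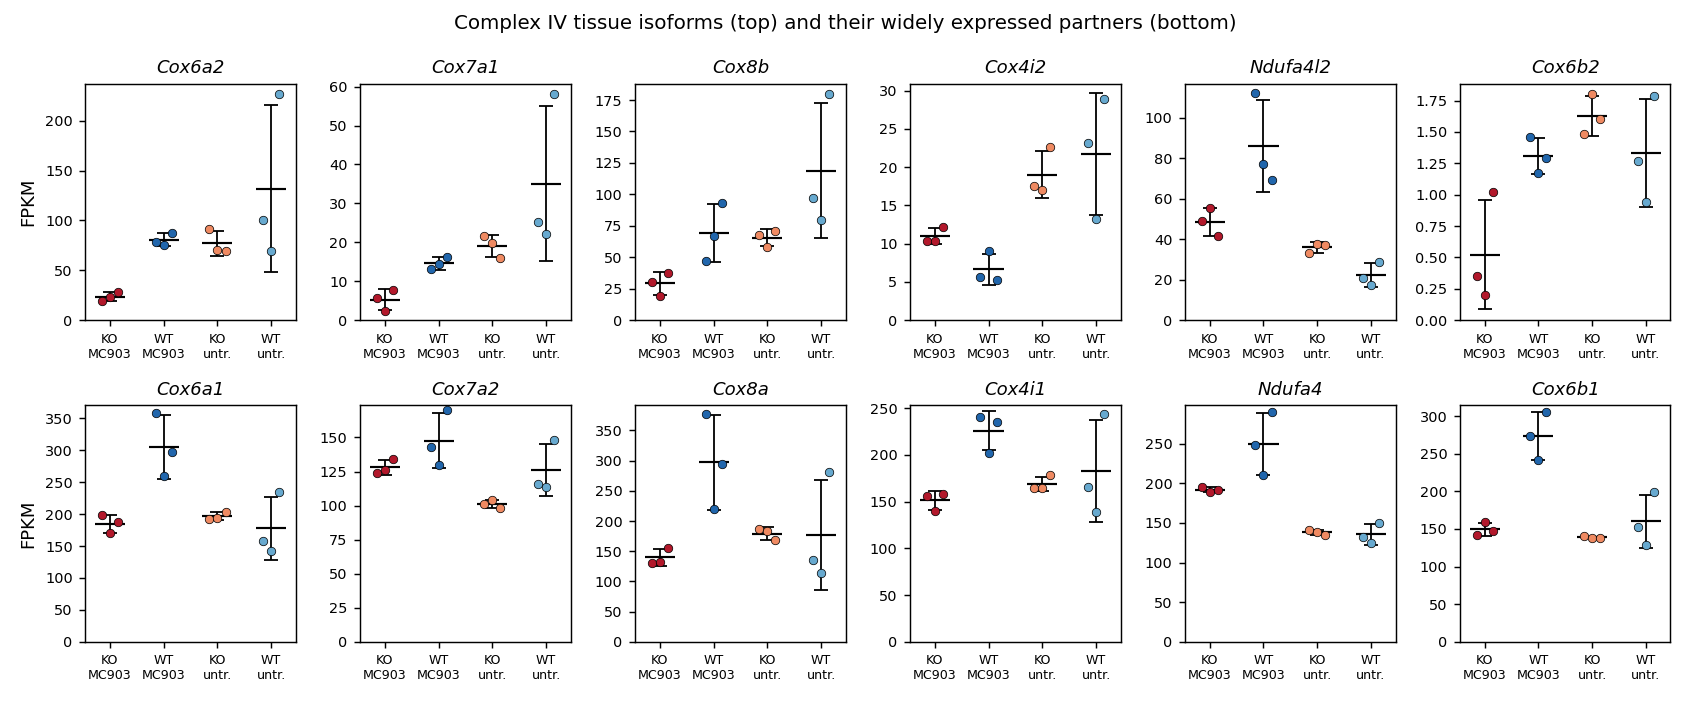
FPKM of complex IV tissue isoforms (top row) and of their widely expressed partners (bottom row) in the 4 groups; points are libraries, the line is the mean and the bar the SD of 3 libraries. Cox6a2, Cox7a1 and Cox8b have their lowest libraries in KO-labelled MC903 skin, and Cox4i2 has its lowest in WT MC903 skin.

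Cox4i2 (chromosome 2, 152754173 to 152765037, mm10), the form of subunit 4 used in lung and in some vessels, ran the other way. It had 10.3, 10.4 and 12.2 FPKM in KO-labelled MC903 skin, against 5.61, 8.98 and 5.29 in WT MC903 skin (log2 fold change 0.72 ± 0.26, limma adjusted p = 0.038). The groups did not overlap, but the call was lost without any of 5 of the MC903 libraries, with a limma adjusted p of 0.065, 0.068 and 0.109 without KO-labelled replicates 1, 2 and 3 and of 0.116 and 0.125 without WT replicates 1 and 3. Markers of smooth muscle and pericytes moved the same way: 8 of 12 were higher and 1 lower, with a median of 0.79, and their summed level was 191 to 257 FPKM in KO-labelled skin, against 166 to 203 in WT skin. Their part in the Cox4i2 result was not tested.

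Ndufa4l2, a relative of Ndufa4 that hypoxia-inducible factor switches on, had 48.9, 55.3 and 41.4 FPKM in KO-labelled MC903 skin, against 112, 77.1 and 69.0 in WT MC903 skin (log2 fold change -0.80 ± 0.21, limma adjusted p = 0.0072). Of 12 hypoxia-responsive genes outside the rule 6 were lower and 0 higher, with a median of -0.41. A link between these genes and Ndufa4l2 was not tested in any comparison. Cox6b2, a testis form, was near the limit of detection in skin, with 4 to 38 reads per library. It had 0.348, 0.2 and 1.02 FPKM in KO-labelled skin, against 1.46, 1.17 and 1.29 in WT skin (-0.90 ± 0.26, limma adjusted p = 0.013).

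The muscle isoforms moved together with markers of skeletal muscle. Of 16 tested markers of skeletal muscle 15 were lower in KO-labelled than in WT MC903 skin and 0 higher, with a median of -1.44, such as Actn3, an actinin of fast fibres (-2.49, limma adjusted p = 6.3e-05). Their summed level was 757, 775 and 1180 FPKM in KO-labelled MC903 skin, against 2350, 3210 and 2450 in WT MC903 skin. In untreated skin it was 3290, 2460 and 3260 FPKM in KO-labelled libraries, against 3520, 3300 and 6440 in WT libraries, with the highest value again in replicate 3. Tnnc2 was listed at 0 in all 12 libraries. Ucp1, which defines brown fat cells, did not exceed 0.291 FPKM. The part of muscle content in these results was not tested.

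Epidermal markers were lower as well, while markers of several other compartments were higher. Of 8 markers of basal keratinocytes 7 were lower and 0 higher, such as Krt5 (log2 fold change -1.86, limma adjusted p = 1.9e-05), with a summed level of 3500 to 4880 FPKM in KO-labelled MC903 skin, against 12400 to 17300 in WT MC903 skin. In untreated skin it was 2020 to 2310 FPKM in KO-labelled libraries, against 1740 to 2030 in WT libraries. Of 8 suprabasal markers 7 were lower, with sums of 1300 to 2380 FPKM in KO-labelled skin, against 2640 to 7240 in WT skin, and all 4 stress keratins were lower. All 8 fibroblast, 5 endothelial, 6 Schwann cell and 6 macrophage markers were higher, as were 5 of 6 mast cell and 3 of 5 neutrophil markers. Smaller counts were seen for white adipocyte (3 higher and 2 lower of 11, with sums of 278 to 417 FPKM in KO-labelled skin, against 470 to 607 in WT skin), brown adipocyte (1 and 2 of 5), hair follicle (1 and 0 of 10), sebaceous (3 and 0 of 9), T cell (2 and 0 of 4) and cell cycle genes (0 and 3 of 6), and for immediate early and heat shock genes, read as signs of handling (0 and 4 of 9). The keratins place the libraries in skin. The part of the balance of compartments in the results on respiratory genes was not tested.

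**Figure D4:**
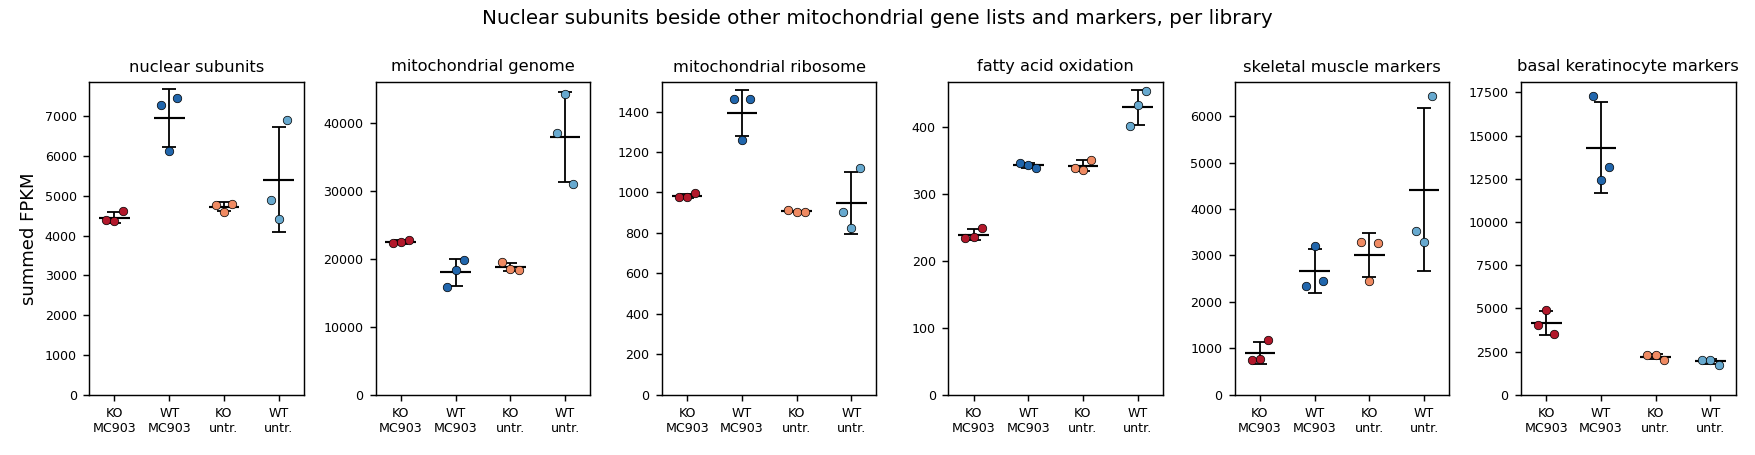
Summed FPKM of the nuclear subunits, the mitochondrial genome, the mitochondrial ribosome, fatty acid oxidation, and skeletal muscle and basal keratinocyte markers in the 4 groups; points are libraries, the line is the mean and the bar the SD of 3 libraries. Muscle and basal keratinocyte markers are both lower in KO-labelled than in WT MC903 skin, but the group with the highest level is WT untreated skin for muscle and WT MC903 skin for keratinocytes.

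In WT skin given MC903 about as large a share of respiratory genes as of all genes was higher. Of the 91 members 33 were higher and 10 lower in WT MC903 than in WT untreated skin, with a median of 0.23, against 0.02 over all genes tested. Over all genes 63% passed, 32.6% higher and 30.3% lower, beside 36.3% and 11% of the members, so the share of higher members was near that of all genes. Groups did not overlap for 30 members, or 33%, beside 64.1% of all genes. The split depended on the scaling: TPM scaling, which moved the median of all genes to -0.38, gave 6 higher and 41 lower, and scaling by total reads gave 15 and 17. Beside these, 15.3% of all genes were higher and 42.4% lower under TPM scaling, and 25.1% and 37.9% when scaled by total reads. With the trend on gene length and GC content removed from every library, 19 were higher and 18 lower, with a median of 0.02 and that of complex I at -0.05. Of all genes 31.7% were then higher and 32.8% lower. Without WT untreated replicate 3, 52 were higher and 6 lower, beside 32.7% and 31% of all genes. Relative to all genes, the members' median was 0.05 to 0.36 higher under all the alternatives tried. Other markers moved in this comparison as well: 6 of 8 basal keratinocyte markers were higher and 2 lower, all 8 fibroblast markers, 10 of 11 white adipocyte markers and 7 of 16 skeletal muscle markers were lower, and of 9 immediate early and heat shock genes 5 were higher and 1 lower. Fibroblast sums were 613 to 745 FPKM with MC903, against 1300 to 2300 untreated, and white adipocyte sums 470 to 607 with MC903, against 774 to 1700 untreated. Sums of the immediate early and heat shock genes were 353 to 390 FPKM with MC903, against 111 to 159 untreated. Their part in the result was not tested.

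By complex, 8 members were higher and 2 lower in complex I, 6 and 1 in complex III, 7 and 2 in complex IV and 8 and 0 in complex V. The medians of complexes I (0.18), IV (0.27) and V (0.37) turned to -0.30, -0.21 and -0.10 under TPM scaling, while that of complex III (0.55) stayed above 0, at 0.08. Uqcr11 had 190, 96.6 and 148 FPKM in WT MC903 skin, against 44.0, 27.2 and 116 in WT untreated skin (log2 fold change 1.42 ± 0.42, limma adjusted p = 0.011). Untreated replicate 3 overlapped the MC903 group. Uqcrq had 143, 96.6 and 153 FPKM with MC903, against 48.7, 34.8 and 87.4 untreated (1.27 ± 0.28, limma adjusted p = 0.0019). Atp5d had 157, 145 and 153 FPKM with MC903, against 61.2, 54.0 and 98.7 untreated (1.13 ± 0.17, limma adjusted p = 0.00016). Neither Uqcrq nor Atp5d had overlapping groups. Ndufs6 had 72.6, 38.4 and 60.3 FPKM with MC903, against 20.7, 17.0 and 41.6 untreated (1.16 ± 0.30, limma adjusted p = 0.0055), with overlap. The core of complex I took little part, with 0 of 7 genes higher and 1 lower (Ndufs1, -0.20 ± 0.08, limma adjusted p = 0.044), and the alpha, beta and gamma chains of complex V gave no call among 3.

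Complex II went mostly down in WT skin. Sdhb had 42.3, 38.4 and 38.2 FPKM in WT MC903 skin, against 52.2, 56.6 and 67.9 in WT untreated skin (log2 fold change -0.56 ± 0.10, limma adjusted p = 0.0006). Sdha fell to 48.6, 47.5 and 46.5 FPKM with MC903, against 58.4, 58.0 and 79.2 untreated (-0.44 ± 0.12, limma adjusted p = 0.0093), and Sdhc to 30.6, 29.7 and 28.2 with MC903, against 35.4, 34.2 and 45.6 untreated (-0.36 ± 0.12, limma adjusted p = 0.016). These 3 genes had groups that did not overlap, and WT untreated replicate 3 was the highest library for each. The anchor Sdhd was higher, with 87.2, 81.7 and 101 FPKM with MC903, against 65.4, 57.3 and 85.5 untreated (0.39 ± 0.14, limma adjusted p = 0.031), but was below 0 under TPM scaling (-0.09). Uqcrc2 (-0.26 ± 0.08, limma adjusted p = 0.0094) and Ndufa10 (-0.21 ± 0.07, limma adjusted p = 0.025) were lower as well.

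Complex IV isoforms parted in WT skin. Ndufa4l2 (chromosome 10, 127514967 to 127517154, mm10) had 112, 77.1 and 69.0 FPKM in WT MC903 skin, against 20.7, 17.3 and 28.8 in WT untreated skin (log2 fold change 1.93 ± 0.21, limma adjusted p = 1.1e-05). Ndufa4 had 248, 211 and 290 FPKM with MC903, against 132, 125 and 150 untreated (0.87 ± 0.12, limma adjusted p = 5.6e-05). Both kept their groups apart. Of 12 hypoxia-responsive genes 8 were higher and 2 lower, with a median of 0.78. Cox4i2 had 5.61, 8.98 and 5.29 FPKM in WT MC903 skin, against 23.1, 13.2 and 28.9 in WT untreated skin (-1.61 ± 0.26, limma adjusted p = 0.00026), and its share with Cox4i1 was 2.28%, 4.26% and 2.2% with MC903, against 12.2%, 8.69% and 10.6% untreated. Of the markers of smooth muscle and pericytes 7 of 12 were lower and 1 higher. Cox7a1 had 13.1, 14.3 and 16.3 FPKM with MC903, against 25.1, 22 and 58.0 untreated (-1.11 ± 0.39, limma adjusted p = 0.028), and without WT untreated replicate 3 its change was -0.68 (limma adjusted p = 0.107). Cox6a2 (-0.53, limma adjusted p = 0.19) and Cox8b (-0.75, limma adjusted p = 0.069) did not pass. The common forms Cox6a1 (0.80 ± 0.17, limma adjusted p = 0.0019), Cox6b1 (0.79 ± 0.14, limma adjusted p = 0.0006) and Cox8a (0.83 ± 0.29, limma adjusted p = 0.026) were higher, while Cox4i1 (0.34, limma adjusted p = 0.1), Cox7a2 (0.23, limma adjusted p = 0.12) and Cox6b2 (0.00, limma adjusted p = 1.0) did not pass. Cox7a2l was higher (0.29 ± 0.12, limma adjusted p = 0.047), but below 0 under TPM scaling (-0.19).

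In complex V Atp5e, the epsilon chain of the central stalk, had 85.1, 80.0 and 107 FPKM in WT MC903 skin, against 41.0, 30.7 and 84.4 in WT untreated skin (log2 fold change 0.92 ± 0.28, limma adjusted p = 0.015). Atp5o, the stalk subunit named for oligomycin sensitivity, was higher by less (0.41 ± 0.14, limma adjusted p = 0.023), as was Atp5f1 (0.36 ± 0.09, limma adjusted p = 0.0063). Both were below 0 under TPM scaling.

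In KO-labelled skin few respiratory genes passed with MC903 in the main fit. Of the 91 members 7 were higher and 12 lower in KO-labelled MC903 than in KO-labelled untreated skin, with a median of -0.08, against 0.00 over all genes tested. Over all genes 47.9% passed, 25% higher and 23% lower, beside 7.69% and 13.2% of the members. Groups did not overlap for 50 members, or 54.9%, beside 63% of all genes. TPM scaling gave 2 higher and 28 lower with a median of all genes of -0.19, and scaling by total reads gave 3 and 21. Beside these, 14% of all genes were higher and 28.1% lower under TPM scaling, and 21.4% and 26.1% when scaled by total reads. Without WT untreated replicate 3, which enters this fit only through the estimate of spread, 8 were higher and 23 lower, beside 27.1% and 25.6% of all genes. A fit of only the 2 KO-labelled groups gave 11 higher and 27 lower, beside 27.6% and 26.1% of all genes. Library weights gave the same member counts, beside 29.7% and 28.5% of all genes. The number of calls thus depended on how the spread was estimated.

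The tissue isoforms of complex IV were 5 of the 12 members that fell, and of the 6 isoforms 0 rose. Cox7a1 had 5.67, 2.38 and 7.68 FPKM in KO-labelled MC903 skin, against 21.5, 19.8 and 15.9 in KO-labelled untreated skin (log2 fold change -1.89 ± 0.39, limma adjusted p = 0.0023). Cox6a2 had 19.5, 23.5 and 27.7 FPKM with MC903, against 91.5, 70.8 and 69.1 untreated (-1.69 ± 0.33, limma adjusted p = 0.0016). Groups were apart for both genes. Cox8b (-1.20 ± 0.33, limma adjusted p = 0.012), Cox6b2 (-1.13 ± 0.26, limma adjusted p = 0.004) and Cox4i2 (-0.76 ± 0.26, limma adjusted p = 0.032) were also lower. Skeletal muscle markers were lower for 14 of 16 and higher for 0, with a median of -1.72 and sums of 757 to 1180 FPKM with MC903, against 2460 to 3290 untreated. White adipocyte markers were lower for 9 of 11, hair follicle markers for 8 of 10 and Schwann cell markers for 5 of 6, and all 6 macrophage markers were higher. Of 9 immediate early and heat shock genes 4 were lower and 1 higher. Their part in the result was not tested.

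Outside the isoforms complex I had 4 lower genes. Ndufa13, an accessory subunit also known as GRIM-19, had 25.3, 28.6 and 30.1 FPKM in KO-labelled MC903 skin, against 50.9, 43.7 and 47.1 in KO-labelled untreated skin (log2 fold change -0.75 ± 0.26, limma adjusted p = 0.035). Ndufv3, an accessory subunit, had 12, 12.1 and 13 FPKM with MC903, against 22, 18.8 and 17.7 untreated (-0.63 ± 0.19, limma adjusted p = 0.019). The core genes Ndufs7 (-0.36 ± 0.13, limma adjusted p = 0.045) and Ndufv1 (-0.34 ± 0.13, limma adjusted p = 0.0496) passed by a small margin. Sdha had 33.0, 34.6 and 40.2 FPKM with MC903, against 53.4, 48.0 and 55.4 untreated (-0.54 ± 0.12, limma adjusted p = 0.0043), and no member of complex III passed. Among the higher genes were Ndufa4, with 195, 189 and 192 FPKM with MC903, against 141, 138 and 135 untreated (0.47 ± 0.12, limma adjusted p = 0.0058), Cox7a2 (0.34 ± 0.12, limma adjusted p = 0.039), and in complex V Atp5mpl (0.51 ± 0.17, limma adjusted p = 0.026), Atp5g2, a c-ring subunit (0.31 ± 0.10, limma adjusted p = 0.019), and Atp5f1 (0.27 ± 0.09, limma adjusted p = 0.035). Ndufa4l2 (0.42, limma adjusted p = 0.11), Cox4i1 (-0.16, limma adjusted p = 0.47), Cox6a1 (-0.10, limma adjusted p = 0.68), Cox6b1 (0.11, limma adjusted p = 0.57), Cox8a (-0.36, limma adjusted p = 0.33) and Cox7a2l (-0.20, limma adjusted p = 0.18) did not pass. Of 12 hypoxia-responsive genes 5 were higher and 0 lower, with a median of 0.30. The assembly factors Ndufaf4 (0.80, limma adjusted p = 0.00032) and Ndufaf3 (-0.59, limma adjusted p = 0.008) passed in opposite directions.

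In untreated skin few members passed between the labels. Of the 91 members 11 were lower and 1 higher in KO-labelled than in WT untreated skin, with a median of -0.20, against 0.01 over all genes tested. Over all genes 11.7% passed, 7.15% higher and 4.55% lower, beside 1.1% and 12.1% of the members. Groups did not overlap for 36 members, or 39.6%, beside 31.1% of all genes. Scaling by total reads gave 20 lower and 1 higher, beside 6.06% and 5.97% of all genes. Without WT untreated replicate 3, 9 were lower and 8 higher, with a median of -0.05, so the balance of directions rested on that library. Of all genes 8.2% were lower and 12% higher without it. With the trend on length and GC content removed, 21 were lower and 0 higher, beside 6.55% and 5.61% of all genes. Of the marker lists, white adipocyte genes were lower for 10 of 11 (median -0.91), with sums of 685 to 761 FPKM in KO-labelled skin, against 774 to 1700 in WT skin. Higher were 5 of 8 fibroblast, 4 of 8 suprabasal and 3 of 4 stress keratin genes, and 5 of 9 immediate early and heat shock genes, with sums of 205 to 294 FPKM in KO-labelled skin, against 111 to 159 in WT skin for the last. Their part in the result was not tested.

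The members that passed were 10 lower subunits, the lower assembly factor Ndufaf4 (-0.42 ± 0.12, limma adjusted p = 0.049) and the higher isoform Ndufa4l2. Ndufv2 had 44.7, 43.2 and 43.7 FPKM in KO-labelled untreated skin, against 58.2, 59.3 and 63.1 in WT untreated skin (log2 fold change -0.45 ± 0.07, limma adjusted p = 0.0031). Atp5c1 had 100, 98.5 and 100 FPKM in KO-labelled skin, against 132, 129 and 140 in WT skin (-0.42 ± 0.07, limma adjusted p = 0.0057). WT replicate 3 was the highest of its group for both genes by a small margin, and both kept their call under all 27 alternatives other than the 2-fold threshold, which neither reached. Sdhb had 44.5, 39.9 and 46.3 FPKM in KO-labelled skin, against 52.2, 56.6 and 67.9 in WT skin (-0.43 ± 0.10, limma adjusted p = 0.024). Uqcrc2 had 47.5, 46.2 and 52.2 FPKM in KO-labelled skin, against 58.7, 64.1 and 64.6 in WT skin (-0.36 ± 0.08, limma adjusted p = 0.013). Further lower members of complex I were Ndufab1, the mitochondrial acyl carrier protein (-0.46 ± 0.09, limma adjusted p = 0.011), Ndufs4 (-0.45 ± 0.11, limma adjusted p = 0.027), Ndufs1 (-0.34 ± 0.08, limma adjusted p = 0.019), Ndufb5 (-0.35 ± 0.09, limma adjusted p = 0.027) and Ndufa10 (-0.33 ± 0.07, limma adjusted p = 0.018). In complex IV Cox5a was lower (-0.31 ± 0.09, limma adjusted p = 0.043), and Ndufa4l2 was the higher gene, with 33.0, 37.8 and 36.9 FPKM in KO-labelled skin, against 20.7, 17.3 and 28.8 in WT skin (0.71 ± 0.21, limma adjusted p = 0.049). It kept this call under 12 of those 27 alternatives, and Ndufaf4 under 10. Of 12 hypoxia-responsive genes 0 were higher and 2 lower in this comparison, with a median of -0.12, so they did not move with Ndufa4l2 here. A named pseudogene, Ndufab1-ps, reached 19.8 FPKM, so reads of Ndufab1, at 2.81 to 5.17 FPKM, may be divided between them. The muscle isoforms Cox6a2 (-0.60, limma adjusted p = 0.27), Cox7a1 (-0.73, limma adjusted p = 0.25) and Cox8b (-0.77, limma adjusted p = 0.15) did not pass, nor did Cox4i2 (-0.13, limma adjusted p = 0.79) or Cox6b2 (0.24, limma adjusted p = 0.6).

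The difference of the MC903 response, KO-labelled minus WT, was tested as an interaction. It uses the same 12 libraries as the comparisons above, which also share groups with each other, so they are not independent of it. Of the 91 members 20 were lower and 2 higher, with a median of -0.35, against -0.01 over all genes tested. Over all genes 39.7% passed, 20% higher and 19.7% lower, beside 2.2% and 22% of the members, so the share of lower members was near that of all genes. The split moved with scaling, to 7 lower and 14 higher under TPM scaling, where the median of all genes was 0.22, to 15 and 8 when scaled by total reads and to 10 and 7 with the trend on length and GC content removed. Without WT untreated replicate 3, 49 were lower and 2 higher. The median of all genes was 0.12 when scaled by total reads, 0.01 with the trend removed and -0.01 without that replicate. Relative to all genes, the members' median lay between -0.52 and -0.20 under all the alternatives tried. The member counts alone do not tell a change of the members from a shift of all genes. Complex I had 5 lower members, complex III had 3, complex IV had 6 and complex V had 4, and the median of complex V (-0.20) turned to 0.09 under TPM scaling.

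Among members Uqcr11 had the largest difference between the responses, at -2.24 ± 0.59 (limma adjusted p = 0.012). Its FPKM was 35.3, 37.7 and 48.2 with MC903 and 77.5, 68.7 and 67.8 untreated in KO-labelled skin, against 190, 96.6 and 148 with MC903 and 44.0, 27.2 and 116 untreated in WT skin. Levels under MC903 were thus below untreated levels in KO-labelled skin and mostly above them in WT skin. Ndufs6 followed the same order (-1.90 ± 0.42, limma adjusted p = 0.0049), as did Ndufa2 (-1.62 ± 0.50, limma adjusted p = 0.025). None of these genes passed with MC903 in KO-labelled skin taken alone. In WT skin, untreated replicate 3 overlapped the MC903 group for each of them. Atp5d had 75.6, 76.4 and 70.8 FPKM with MC903 and 80.0, 80.9 and 81.9 untreated in KO-labelled skin, and 157, 145 and 153 with MC903 against 61.2, 54.0 and 98.7 untreated in WT skin (-1.26 ± 0.24, limma adjusted p = 0.0023). For Ndufa4l2 the response was smaller in KO-labelled skin (-1.51 ± 0.29, limma adjusted p = 0.0023). Calls of the opposite sign were Sdhb (0.55 ± 0.14, limma adjusted p = 0.012) and Uqcrc2 (0.35 ± 0.11, limma adjusted p = 0.022), whose levels were lower with MC903 in WT skin. Among the isoforms Cox6a2 (-1.17, limma adjusted p = 0.07), Cox7a1 (-0.78, limma adjusted p = 0.29), Cox8b (-0.45, limma adjusted p = 0.47) and Cox4i2 (0.85, limma adjusted p = 0.09) did not pass, so their responses were not shown to differ.

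Other mitochondrial genes were read beside the members. After MC903, 46 of 77 mitochondrial ribosome genes were lower in KO-labelled than in WT skin and 0 higher, with a median of -0.41, such as Mrpl37 (-0.73, limma adjusted p = 5e-05). Of 15 electron carriers 8 were lower and 0 higher, among them cytochrome c1, Cyc1 (-0.74, limma adjusted p = 0.00057), and Etfb, which hands electrons from fatty acid oxidation to the chain (-1.80, limma adjusted p = 0.00012). Of the other lists, 9 of 14 genes of fatty acid oxidation were lower and 0 higher, 10 and 1 of 18 for import and cristae, 7 and 0 of 11 for upkeep of mitochondrial DNA, and 13 and 2 of 34 for assembly factors outside the rule. The tricarboxylic acid cycle had 6 lower and 1 higher of 17, and regulators of mitochondrial biogenesis 5 and 1 of 12. With MC903 in WT skin 57 ribosome genes were higher and 2 lower, and in KO-labelled skin 26 were higher and 0 lower. The regulator Esrra, a nuclear receptor that switches on respiratory genes, averaged 12.7 ± 0.711 FPKM in KO-labelled MC903 skin, against 33.5 ± 4.0 in WT MC903 skin (SD, n = 3 each; -1.36, limma adjusted p = 0.00017 across all genes). Nrf1, which encodes the factor whose letters were searched above, was lower (-0.35, limma adjusted p = 0.019), and Gabpa was higher (0.42, limma adjusted p = 0.0016).

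The 13 subunits encoded in the mitochondrial genome showed another order of groups. After MC903, 2 were higher and 1 lower in KO-labelled than in WT skin, with a median of 0.22, and their summed level was 22300 to 22800 FPKM in KO-labelled skin, against 15900 to 19800 in WT skin. The higher genes were mt-Nd5 (0.79, limma adjusted p = 0.0015) and mt-Co3 (1.22, limma adjusted p = 0.042), and mt-Co2 was lower (-0.27, limma adjusted p = 0.022). In untreated skin the sums were 18400 to 19500 FPKM in KO-labelled libraries, against 31100 to 44300 in WT libraries, where WT replicate 3 was lowest while it was highest for the nuclear members. Of the 13, 9 were lower with MC903 in WT skin and 9 were lower in KO-labelled than in WT untreated skin. Beside these, 30.3% and 4.55% of all genes were lower. With MC903 in KO-labelled skin 3 were higher and 0 lower. For the difference of responses 10 were higher and 0 lower, with a median of 1.26. Nuclear and mitochondrial transcripts of the same complexes thus differed in which group was highest.

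**Figure D5:**
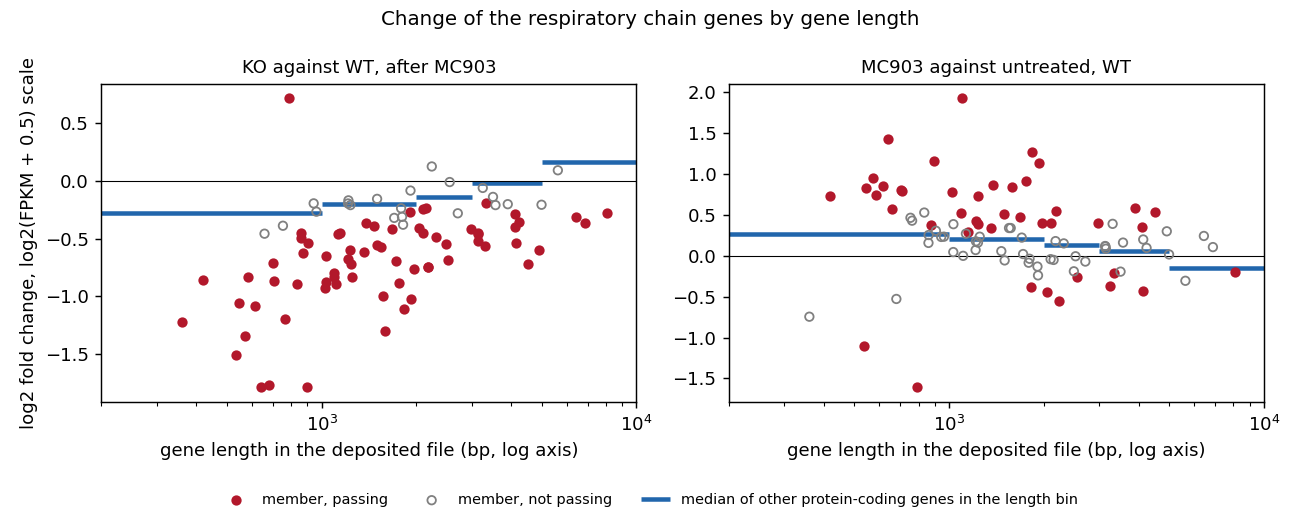
Log2 fold change of the 91 members (log2(FPKM + 0.5) scale) against gene length (bp, log axis), for KO-labelled against WT skin after MC903 (left) and MC903 against untreated WT skin (right); filled points passed the test, open points did not, and bars are medians of the other protein-coding genes in bins of length. On the left, shorter members have lower values and most members lie below the bar of their length.

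Members are short genes, with a median length of 1587 bp, against 4162 bp for the other protein-coding genes tested. In the plot of change against length, Spearman's rho over the 91 members was 0.51 in KO-labelled against WT skin after MC903, given as a description over genes that share their libraries. Among genes up to 1000 bp, 78.3% of 23 members and 28.6% of 591 other protein-coding genes were lower, with medians of -0.86 and -0.28. From 1000 to 2000 bp, 74.3% of 35 members and 35.2% of 1770 other genes were lower. The longer bins held fewer than 20 members each. With the trend on length and GC content removed from every library, 59 members were lower and 2 higher in that comparison, whereas with MC903 in WT skin the 33 higher and 10 lower members became 19 and 18. Of all genes 27.9% were then lower and 23.9% higher in KO-labelled against WT skin after MC903. Ndufs6 (898 bp), Uqcr11 (641 bp) and Cox6a2 (680 bp), the members with the largest changes, are among the short genes. For the difference of responses rho was 0.55. Up to 1000 bp, 39.1% of members and 27.1% of other protein-coding genes were lower in that contrast, with medians of -0.73 and -0.49.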

How the data were processed

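Skin mRNA was selected with poly-T beads and reverse transcribed from random hexamers, per the labels' protocols, and strand was not used. The authors deposited FPKM values per gene of 12 skin libraries. Genome mm10 and featureCounts are named in the submitters' processing notes, with no aligner or annotation release given. FPKM values times gene length gave whole reads for 100% of values within a tolerance of 0.01, which summed to 16869716 to 18485698 in a library. Denominators were 0.917 to 1.115 of these sums and lay within 0.566% of median-of-ratios size factors, so the deposited FPKM values were taken as already scaled between libraries. The 3 dorsal root ganglion samples of the 15 in the series were not analysed here.

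Genes with FPKM of at least 0.5 in at least 3 libraries, 17646 in all, were fitted on log2(FPKM + 0.5) with limma over 4 groups of 3 libraries, with 8 residual degrees of freedom and eBayes moderation with a mean trend. Tests were two-sided, with Benjamini-Hochberg adjustment within each contrast over all genes tested. The fit was tried on simulated counts with few changed genes, a common spread and no outlying library. These settings differ from those of the data, so the trial does not bear on results that rest on them. The members, lists and naming rule were chosen with earlier results of these data known. Named were, in each comparison and complex, the 2 highest and 2 lowest changes that passed, the complex IV isoforms and their partners, complex II, the highest and lowest core genes, and up to 4 genes per other list by adjusted p. Further members of a call were named after their values were seen, such as Cox5b, Ndufb2, Ndufs8 and Ndufaf4. Alternatives were other pseudocounts, filters and scalings (TPM, total reads, median of ratios), robust moderation, weights per library, voom applied to recovered reads, fits of only the groups compared, a replicate block, protein-coding genes only, a minimum of 2-fold and omission of single libraries. Removal of a trend on gene length and GC content was added after the data had been seen. Promoters came from RefSeq (GRCm38.p6).

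Software was limma 3.58.1 in R 4.3.3 for the fits, and pandas 2.3.3, scipy 1.17.1, numpy 2.4.6 and matplotlib 3.10.9 in Python 3.11.15 for tables and plots.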

Additional observations from a re-analysis of the deposited data

Results flagged for a closer look

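For 22 of the 91 members the response to MC903 differed between the genotypes by the interaction contrast (KO-labelled minus WT, log2 scale, limma adjusted p below 0.05), beside 39.7% of all genes tested. In complex I the differences were -1.90 for Ndufs6, -1.62 for Ndufa2, -1.14 for Ndufa1, -0.81 for Ndufa11 and -0.76 for Ndufa3, and the assembly factor Ndufaf8 had -0.96. Complex II held Sdhb at 0.55. Complex III held Uqcr11 at -2.24, Uqcrq at -1.10, Uqcrh at -0.75 and Uqcrc2 at 0.35. In complex IV they were -1.51 for Ndufa4l2, -1.37 for Cox5b, -1.19 for Cox8a, -1.13 for Cox6b2, -0.90 for Cox6a1 and -0.68 for Cox6b1, and Cox7a2l had -0.49. In complex V they were -1.26 for Atp5d, -0.86 for Atp5k, -0.69 for Atp5g3 and -0.66 for Atp5o. Atp5d, Ndufa4l2, Ndufs6, Sdhb, Uqcr11 and Uqcrh passed under all 26 alternatives that give this contrast apart from the 2-fold threshold, which Sdhb and Uqcrh did not reach. The test for an outlying sample needs at least 4 samples in a group, so it was not applied to single genes in these groups of 3.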

How the results depend on the processing

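Members lower in KO-labelled than in WT skin after MC903 (68) numbered 34 under TPM scaling, beside 12% of all genes, 12 with a 2-fold threshold and 52 to 74 when a library was left out. Members higher there (1) numbered 3 under TPM scaling, 2 with the length and GC trend removed with or without the replicate block, 0 with no filter, with voom or at 2-fold, and 0 to 1 without a library. Higher members with MC903 in WT skin (33) numbered 6 under TPM scaling, 15 scaled by total reads, 51 with library weights, 18 with only the groups compared, 19 with the trend removed, 21 with that and the replicate block, 5 at 2-fold and 19 to 52 without a library. Of all genes 35.9% were higher there with library weights and 28.8% with only the groups compared. Lower members there (10) numbered 41, 17, 18 and 19 under TPM scaling, total reads, trend removal and trend removal with the replicate block, 2 at 2-fold and 6 to 11 without a library. With MC903 in KO-labelled skin, higher members (7) numbered 2 under TPM scaling, 3 by total reads, 11 with library weights and with only the groups compared, 0 at 2-fold and 3 to 9 without a library. Lower members there (12) numbered 28, 21, 27 and 27 in the same order, 4 at 2-fold and 6 to 23 without a library. In untreated skin, higher members (1) numbered 6 with library weights, 0 with no filter, robust moderation, only the groups compared, the replicate block, trend removal (with or without the block) or 2-fold, and 0 to 8 without a library. Lower members there (11) numbered 20 by total reads, 26 with library weights, 3 with only the groups compared, 21 and 26 with the trend removed without and with the replicate block, 0 at 2-fold and 2 to 13 without a library. With library weights 17% of all genes were lower and 20.2% higher in untreated skin. For the difference of responses, higher members (2) numbered 14 under TPM scaling, 8 by total reads, 7 and 9 with the trend removed without and with the block, 0 at 2-fold and 1 to 3 without a library. Lower members (20) numbered 9 with no filter, beside 9.5% of all genes, 7 under TPM scaling and 48 with library weights. They numbered 10 with the trend removed, 10 at 2-fold and 9 to 49 without a library. With library weights larger shares of all genes passed in each of the other comparisons as well. The count of 48 alone therefore does not show a change particular to the members. TPM scaling divides by the summed FPKM of a library. These sums were 347798 to 354977 in KO-labelled MC903 skin, against 411163 to 455935 in WT MC903 skin. In untreated skin they were 302464 to 312604 in KO-labelled libraries, against 298412 to 325272 in WT libraries. The cause of the changes between alternatives was not tested.

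Single members changed sign under TPM scaling. In KO-labelled against WT skin after MC903 these were Ndufa10 (0.107), Ndufa9 (0.0547), Ndufs1 (0.0055), Ndufv2 (0.0622), Atp5c1 (0.0274) and Atp5f1 (0.0138). With MC903 in WT skin they were Ndufaf2 (-0.0112), Cox7a2l (-0.191), Sdhd (-0.0900), Uqcrb (-0.0996), Uqcrfs1 (-0.139), Cox5a (-0.0764), Atp5f1 (-0.122), Atp5g2 (-0.0056), Atp5mpl (-0.0509) and Atp5o (-0.0694). With MC903 in KO-labelled skin Cox5a was -0.0235 with the length and GC trend removed, with or without the replicate block. Apart from the 2-fold threshold, calls held under all alternatives for 30 of 69 members, 11 of 43, 7 of 19, 2 of 12 and 6 of 22 in KO-labelled against WT skin after MC903, MC903 in WT skin, MC903 in KO-labelled skin, untreated skin and the difference of responses. Of these calls 10, 5, 3, 0 and 4 were also at least 2-fold.

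With the replicate block the higher and lower members were 1 and 71, 40 and 11, 9 and 15, 0 and 15, and 2 and 28 in the same order. Beside these, 26.1% and 26.6%, 32.9% and 30.4%, 24.9% and 23.1%, and 7.66% and 4.38% of all genes were higher and lower. These shares are for the comparisons other than the difference of responses, where the median of all genes stayed at -0.01. Deviations from the group means had r of -0.13 to 0.169 over 18 pairs of libraries with the same number. Over 36 pairs of different numbers r was -0.212 to 0.167. The ranges overlapped, but groups of 3 libraries are too small for this check to exclude a shared batch or pairing. Low genes such as Cox6b2, with 4 to 38 reads per library, are limited by depth.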
